A study of Oncorhynchus mykiss with 8 samples.

Results

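The genes described here encode the contractile machinery of muscle, measured in the liver of small and large rainbow trout. They are the 36 probes, of 43603 on the array with controls left out, whose name in the study's tables of size-related genes holds myosin, troponin, tropomyosin, titin, nebulin, parvalbumin, alpha actin, actinin, creatine kinase or myomesin. Nebulin gave no probe, and the symbols of the array's own annotation added 0 probes. The 36 probes carry 29 distinct names, and only 1494 of all probes have any name, so other probes of the same genes may be on the array without one.

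The fish were rainbow trout of the Lyndon strain, kept at the Alma research station and, per the labels, fed ad libitum. The study instead describes rations adjusted to fish weight and water temperature, and a fast before weighing. They were immature juveniles with both sexes mixed. Parents of a Sept. lot and of a Dec. lot came from the same strain but spawned in different seasons. In each lot a single sire, not shared with the other lot, was crossed with several dams. Both lots were sampled at about the same age, hence on different dates. Parents, spawning season and sampling date cannot be told apart in any difference between the lots. Liver mRNA of 5 fish, 1 from each family, made up a pool. In each lot 1 comparison set the top fish of every family by weight against the second smallest, and another set the second largest against the very smallest. The labels number these pool pairs 1 and 2 without saying which is which. Each pool pair was hybridised on 2 arrays with the dyes exchanged, which gave 4 arrays a lot and 8 in all. The small fish carried Alexa Fluor 647 on one array of a pair and Alexa Fluor 555 on the other. No untreated or reference group exists, so every value below compares the small with the large fish of an array as a log2 ratio: above 0, the transcript was more abundant in the small fish.

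In striated muscle, myosin of the thick filament pulls on actin of the thin filament. Troponin and tropomyosin, which lie along actin, block or free the binding sites for myosin as calcium falls and rises, and titin, actinin and myomesin hold the filaments in register in the sarcomere. Parvalbumin, abundant in the white muscle of fish, binds calcium after contraction, and creatine kinase restores ATP from phosphocreatine. Fast and slow fibres use different isoforms of troponin and myosin. Hepatocytes have no sarcomeres, but non muscle and class I myosins work in nearly all cells, and smooth muscle myosin is found in vessel walls.

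By these roles, 16 probes belonged to the thin filament, 6 to the thick filament, 4 to titin, the Z disc and the M line, 2 to calcium buffering and 2 to energy supply. The other 6 were smooth muscle, non muscle or class I myosins, which the rule takes for their name although they are not skeletal muscle genes. Of the names, 6 say fast, 3 slow, 2 cardiac, 1 smooth and 1 non muscle, and 23 give no fibre type. The files hold ratios without signal intensities, so neither the level of a muscle transcript in liver nor its order among the genes can be given. A ratio was present on all 8 arrays for 31 of the 36 probes, on 7 arrays for 4 and on 5 for 1.

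The names themselves rest partly on these samples. The study's liver tables, which list probes it called between the sizes on these arrays, named 7 of the 36 probes: 6 for the Sept. lot and 1, named for human titin, for both lots. The other 29 took their name from the white muscle tables, which list probes called in muscle of the same fish. Values of the 7 probes in the lot that listed them are therefore a description, while the Dec. values of the 6 Sept. probes, and all values of the other 29, were not used for naming.

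Between 36754 and 41918 probes had a value on an array (3.86% to 15.7% had none), and 35 or 36 of the 36 muscle probes had a value on each array. Over all probes, the 2 arrays of a dye exchange correlated at -0.13 and 0.06 in the Sept. lot and at -0.14 and 0.00 in the Dec. lot, and over the muscle probes at 0.18, 0.67, 0.28 and 0.30. In the same order, both arrays had 1 sign for 39.9%, 48.6%, 40.5% and 45.2% of all probes. For the muscle probes it was 47.1%, 60%, 41.2% and 50%. Some muscle probes were named from calls on these arrays, so nothing is read from their higher correlations. The direction of the ratios was taken from the folds of the study's liver tables, as set out in the methods. Among markers of other cells, the 12 probes for liver cell products had median log2 ratios of -0.11 in Sept. and -0.29 in Dec. The 13 red blood cell probes (hemoglobins and band 3) had medians of -0.42 and 0.71, but the study's liver tables had named 9 of them, and the other 4 had medians of -0.20 and 0.30. In bulk liver, fewer cells of a type and less RNA per cell cannot be told apart, and the part of these markers in the results below was not tested.

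As a group, the muscle probes had medians close to equality between the sizes in both lots, as did all probes. In Sept. the median log2 ratio of the 33 probes tested was 0.00, beside 0.00 over all 38679 probes tested. Above 0 were 16 of 33, against 50.3% of all probes. In Dec. the median was 0.04 in 33 probes, beside 0.01 over 34014, and 20 of 33 were above 0, against 51.9% of all probes. A probe was tested in a lot where all 4 arrays had a value. Of the muscle probes 21 of 33 in Sept. and 26 of 33 in Dec. lay within 0.26 of 0, which is a 1.2-fold difference. The share of all probes within this bound was not worked out, so the counts are a description and nothing particular to muscle probes is read from them. These counts are of lot means, and single arrays scatter more widely, as their plot shows. The fast troponin I probe A_05_P432892, with a Dec. mean of -0.05, ranged over 1.25 across its Dec. arrays.

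**Figure D1:**
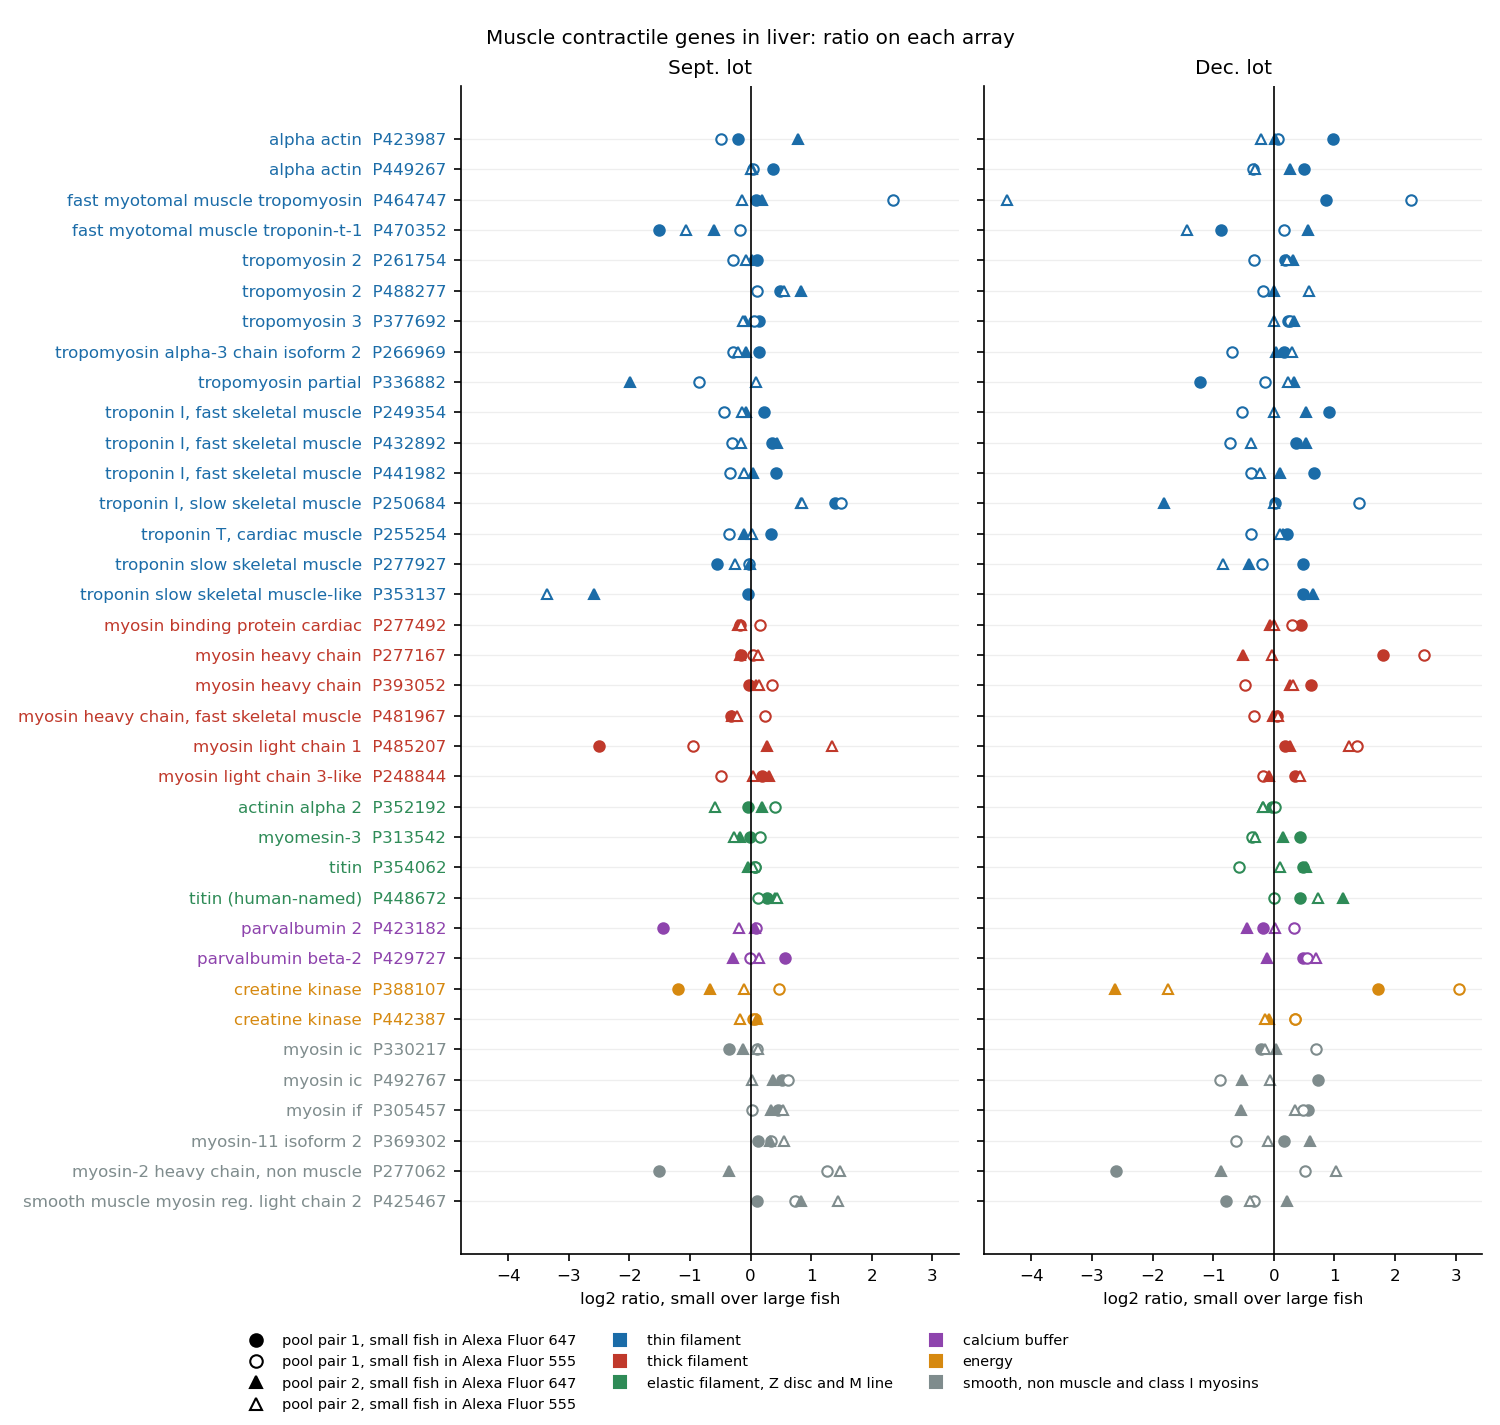
Log2 ratio of small over large fish (x axis) on each array for the 36 muscle probes (rows, coloured by role), in the Sept. lot (left) and the Dec. lot (right). Circles are pool pair 1 and triangles pool pair 2, filled with the small fish in Alexa Fluor 647 and open in 555. Most points lie within 1 of 0, while creatine kinase P388107 in Dec. spans -2.63 to 3.06 and fast myotomal muscle tropomyosin P464747 reaches -4.41.

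Few muscle probes met the study's call rule, applied here to limma over the 2 pool pairs of a lot: a difference of at least 1.2-fold with p at or under 0.05 before adjustment. Probes that met it are said to have passed the thresholds. In Sept. 2 of 33 were higher in small fish, where 1.52% of all probes tested were, and 1 of 33 was higher in large fish, against 1.21%. In Dec. 1 of 33 was higher in small fish, against 2.09%, and 1 of 33 in large fish, against 2.75%. All of these came from the liver tables, and in this fit 0 of the 26 tested probes with names from the white muscle lists passed in either lot. No muscle probe had an adjusted p under 0.99 (limma, Benjamini-Hochberg over all probes), and over all probes the smallest was 1.00 in Sept. and 0.99 in Dec., so every call named below is an unadjusted one. Each lot's mean comes from 2 pool pairs, and the spread behind the test from the 4 pairs of both lots, moderated by limma over all probes. For a probe tested in only 1 lot the spread comes from the 2 pairs of that lot.

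All 4 arrays of the Sept. lot were above 0 for 8 of 33 muscle probes, against 5.00% of all probes, and below 0 for 2, against 4.70%. The liver tables had named 6 of those 8, so nothing is read from the count. In Dec., 3 of 33 were above 0 on all 4 arrays, against 4.64%, and 0 were below, against 3.41%. One probe, named for human titin, was above 0 on all 8 arrays, where 0.553% of the 33291 probes with 8 values had a single sign throughout. The liver tables had listed this probe in both lots, so nothing is read from its single sign.

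Troponin is the calcium switch of the thin filament. Of its 8 probes 7 were tested in each lot, with medians of -0.02 in Sept. and -0.05 in Dec. Troponin I, slow skeletal muscle (A_05_P250684), which encodes the inhibitory subunit of slow fibres, had ratios of 1.40 and 1.49 in pool pair 1 and 0.84 and 0.85 in pool pair 2 of the Sept. lot, each time with the small fish in 647 first and in 555 second. All 4 were above 0, both dye orientations gave nearly the same value in each pair, and the mean was 1.15 with a standard error (SE) of 0.42, a 2.21-fold higher level in small fish. The Sept. liver table had listed it, and with either Sept. pool pair left out, at 0.84 or 1.45, it no longer passed the thresholds. In the Dec. lot its ratios were 0.02 and 1.41 in pool pair 1 and -1.81 and 0.00 in pool pair 2, on both sides of 0, and the mean was -0.09 ± 0.42 (SE over 2 pool pairs a lot). The difference between the lots, 1.24 ± 0.59 (SE), did not pass the thresholds.

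Fast myotomal muscle troponin-t-1 (A_05_P470352), named for the subunit that ties troponin to tropomyosin in fast fibres, ran the other way. Its Sept. ratios were -1.51 and -0.17 in pool pair 1 and -0.60 and -1.06 in pool pair 2, all below 0. The mean was -0.83 ± 0.12 (SE), or 1.78-fold higher in large fish, in the lot whose table had listed it. In Dec., which had not listed it, the ratios were -0.87 and 0.18 in pool pair 1 and 0.56 and -1.43 in pool pair 2. The mean of -0.39 ± 0.12 (SE) passed the unadjusted thresholds, although the 4 arrays lay on both sides of 0. The pair means were close at -0.35 and -0.43, while single arrays differed by up to 1.99. The SE is taken from pair means and does not directly reflect that spread between arrays. The call was lost in 7 of 11 other fits, among them those without either pool pair of either lot, with values from -0.63 to -0.16. It was also lost by the methods' t-test over 4 arrays, with the Dec. lot fitted alone and at a fold of at least 1.5, and the t-test did not call the Sept. value either.

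The 3 probes named troponin I, fast skeletal muscle, the inhibitory subunit of fast fibres, stayed near 0. A_05_P249354 had Sept. ratios of 0.23, -0.44, -0.07 and -0.14 and Dec. ratios of 0.90, -0.52, 0.53 and 0.01, in the order pair 1 in 647 and 555, then pair 2 in 647 and 555. In the same order A_05_P432892 had 0.35, -0.31, 0.43 and -0.16 in Sept. and 0.37, -0.72, 0.53 and -0.37 in Dec. A_05_P441982 had 0.42, -0.35, 0.04 and -0.11 in Sept. and 0.67, -0.38, 0.10 and -0.22 in Dec. Ratios were mostly above 0 with the small fish in 647 and mostly below 0 with them in 555, and averaged over the dyes the 3 probes lay between -0.11 and 0.08 in Sept. and between -0.05 and 0.23 in Dec. None passed the thresholds.

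Of the other slow names, only the first described here had a value on every array. Troponin slow skeletal muscle (A_05_P277927) had ratios of -0.55, -0.02, 0.00 and -0.26 in Sept., none above 0, and of 0.47, -0.20, -0.42 and -0.83 in Dec. The means were -0.21 ± 0.22 and -0.24 ± 0.22 (SE), within their error of 0. Troponin slow skeletal muscle-like (A_05_P353137) lacked a value on 3 arrays and was tested in neither lot. It had -0.04 on the 1 array of Sept. pool pair 1 and -2.58 and -3.37 on the arrays of pool pair 2, then 0.48 and 0.64 on the 2 Dec. arrays with a value. Its Sept. pool pair 2 was thus low in small fish on both dye orientations, while the other 3 arrays were within 0.64 of 0. The troponin T, cardiac muscle probe (A_05_P255254) had means of -0.02 in Sept. and 0.02 in Dec.

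Tropomyosin, the coiled coil that covers the myosin sites of actin, had 6 probes, of which 5 were tested in Sept. and 4 in Dec. with medians of 0.00 and 0.03, and 0 passed the thresholds. Fast myotomal muscle tropomyosin (A_05_P464747) had Sept. ratios of 0.09 and 2.35 in pool pair 1 and 0.19 and -0.13 in pool pair 2, with a mean of 0.62 ± 0.34 (SE) and 1 array far above the other 3. In Dec. it had 0.87 and 2.26 in pool pair 1, and in pool pair 2 the single value of -4.41. It could not be tested there, so its SE rests on the Sept. pairs alone, and the Dec. pool pairs were on opposite sides of 0. The tropomyosin 2 probe A_05_P488277, named from the white muscle tables, was above 0 on all 4 Sept. arrays with a mean of 0.49 ± 0.17 (SE). It did not pass in the main fit. It did pass in Sept. by the methods' t-test, with each lot fitted alone and in a fit of all arrays with a dye term. The same held with the small fish in 647 alone and with a block by pool pair number, but not with 555 alone or on centred arrays. The remaining 4 tropomyosin probes had Sept. means from -0.11 to 0.00 where tested and Dec. means from -0.20 to 0.21. The 2 alpha actin probes, for the main protein of the thin filament, gave 0.11 in Sept. for A_05_P449267, and 0.03 and 0.22 in Dec.

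Of the 6 thick filament probes 0 passed the thresholds. Their medians were -0.07 in Sept. and 0.18 in Dec., and their means ran from -0.46 to 0.14 and from -0.06 to 0.93. Myosin heavy chain, fast skeletal muscle (A_05_P481967), the motor of fast fibres, had ratios of -0.32, 0.24, -0.31 and -0.23 in Sept. and 0.05, -0.33, -0.01 and 0.07 in Dec., with means of -0.15 ± 0.14 and -0.06 ± 0.14 (SE). All 8 arrays lay between -0.33 and 0.24.

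A pair of thick filament genes was singled out after their values were seen, for the distance between their pool pairs. Myosin heavy chain probe A_05_P277167 had Dec. ratios of 1.80 and 2.47 in pool pair 1 and of -0.51 and -0.02 in pool pair 2, but -0.16, 0.03, -0.17 and 0.12 in Sept. Only Dec. pool pair 1 stood away from 0, on both dye orientations, and the Dec. mean was 0.93 ± 0.57 (SE). Myosin light chain 1 (A_05_P485207), a light chain that binds the neck of the myosin head, had Sept. ratios of -2.50 and -0.95 in pool pair 1 and 0.28 and 1.35 in pool pair 2. Its Dec. ratios were 0.18, 1.38, 0.27 and 1.25, all above 0, with a mean of 0.77 ± 0.60 (SE). The Sept. pairs were on opposite sides and the Dec. pairs nearly equal, at 0.78 and 0.76. Its Dec. mean was 0.23 with the small fish in 647 and 1.31 with them in 555, a gap that the SE from pair means does not directly reflect. The SE is shared by both lots, and with the Dec. lot fitted alone this probe passed the thresholds in Dec. Leaving out either Sept. pool pair gives the same fit for Dec. and adds no further evidence.

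Titin is the giant elastic filament from Z disc to M line. Of its 2 probes, the one named for human titin (A_05_P448672), which the liver tables listed in both lots, had ratios of 0.27, 0.12, 0.40 and 0.44 in Sept. and 0.43, 0.01, 1.14 and 0.73 in Dec. All 8 were above 0, the mean was 0.30 ± 0.21 for Sept. and 0.58 ± 0.21 (SE) for Dec., and the latter, a 1.49-fold higher level in small fish, passed the unadjusted thresholds. The Dec. mean was 0.22 without Dec. pool pair 2, where it no longer passed, and 0.94 without Dec. pool pair 1. The call was also lost with the Dec. lot fitted alone. For Dec. this is the same fit as leaving out either Sept. pool pair, which sets the spread but not the mean. It was lost too at a fold of at least 1.5 and by the methods' t-test as run here, although the study's Dec. liver table listed the probe. The probe named titin alone (A_05_P354062) had means of 0.04 and 0.14. Actinin alpha 2, which anchors thin filaments at the Z disc, had -0.01 and -0.09, and myomesin-3, which links thick filaments at the M line, had -0.07 and -0.02, none past the thresholds.

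Parvalbumin 2 (A_05_P423182) had means of -0.37 in Sept. and -0.06 in Dec., and parvalbumin beta-2 (A_05_P429727) had 0.10 and 0.40. Neither passed the thresholds. In Sept. parvalbumin 2 read -1.45 on 1 array and between -0.19 and 0.09 on the others, with an SE of 0.20. Creatine kinase showed the widest spread over arrays of the 33 muscle probes tested in Dec. In the Dec. lot A_05_P388107 had ratios of 1.73 and 3.06 in pool pair 1 and of -2.63 and -1.74 in pool pair 2, while in Sept. it had -1.19, 0.46, -0.66 and -0.10. Both dye orientations put it higher in the small fish of Dec. pool pair 1 and higher in the large fish of pool pair 2. The pair means were 2.40 and -2.18 and averaged to 0.11 ± 1.07 (SE). The second creatine kinase probe (A_05_P442387) had 0.35, 0.36, -0.09 and -0.15 in Dec., the same order of the pairs within a narrower range.

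The Dec. pool pairs therefore differed for a few muscle genes by more than the mean over the lot shows. Pool pairs were over 1 apart on the log2 scale for 2 of 33 muscle probes in Sept., against 4.81% of all probes tested, and for 4 of 33 in Dec., against 6.64%, counts that were not tested against each other. The 4 Dec. probes were creatine kinase, myosin heavy chain, troponin I slow and the non muscle myosin-2 heavy chain. The median gap between the pairs was 0.20 for muscle probes and 0.19 for all probes in Sept., and 0.30 and 0.28 in Dec.

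A rule set after these values were seen asked which probes exceeded 2-fold in one direction on both arrays of a pool pair. In Sept. pool pair 1 this held for 1 of 34 muscle probes (troponin I slow) and 0.380% of all probes, and in Sept. pool pair 2 for 1 of 35 (troponin slow skeletal muscle-like) and 0.585%. In Dec. pool pair 1 it held for 2 of 34 (creatine kinase and myosin heavy chain, both higher in small fish) and 0.503%, and in Dec. pool pair 2 for 1 of 34 (creatine kinase, higher in large fish) and 0.709%.

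The array's annotation also gives muscle symbols that the rule does not take, and the list of these was drawn up after the files were read. It has 12 probes, of which 4 are for mlc-2, the regulatory myosin light chain, and 1 for prvb, a parvalbumin. In Dec. pool pair 1 the mlc-2 probe A_05_P248939 had ratios of 1.70 and 2.70, and in pool pair 2 -0.05 and -0.20. The mlc-2 probe A_05_P488692 had 1.47 and 2.85 against 0.15 and -0.82, and A_05_P249999 had 1.00 and 2.91 against -0.33 and 0.16. These 3 probes and the myosin heavy chain probe thus followed 1 pattern, with only Dec. pool pair 1 high in small fish. The fourth, A_05_P488482, had 0.40 and 0.54 against 0.02 and -0.20. The prvb probe (A_05_P332207) had 2.41 and 3.82 against -1.99 and -2.69, the pattern of creatine kinase. In Sept. the 4 mlc-2 probes had means from -0.36 to 0.16, and prvb, with 3 values, was not tested. The other 7 probes of the list are for regulators of muscle development. In Dec. 6 of them had a value in both pool pairs, and 1, pax7, was over 1 higher in pair 1 than in pair 2, at 0.28 and -1.10. The mrf4 probe ran the opposite way, at -0.90 and 1.29.

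**Figure D2:**
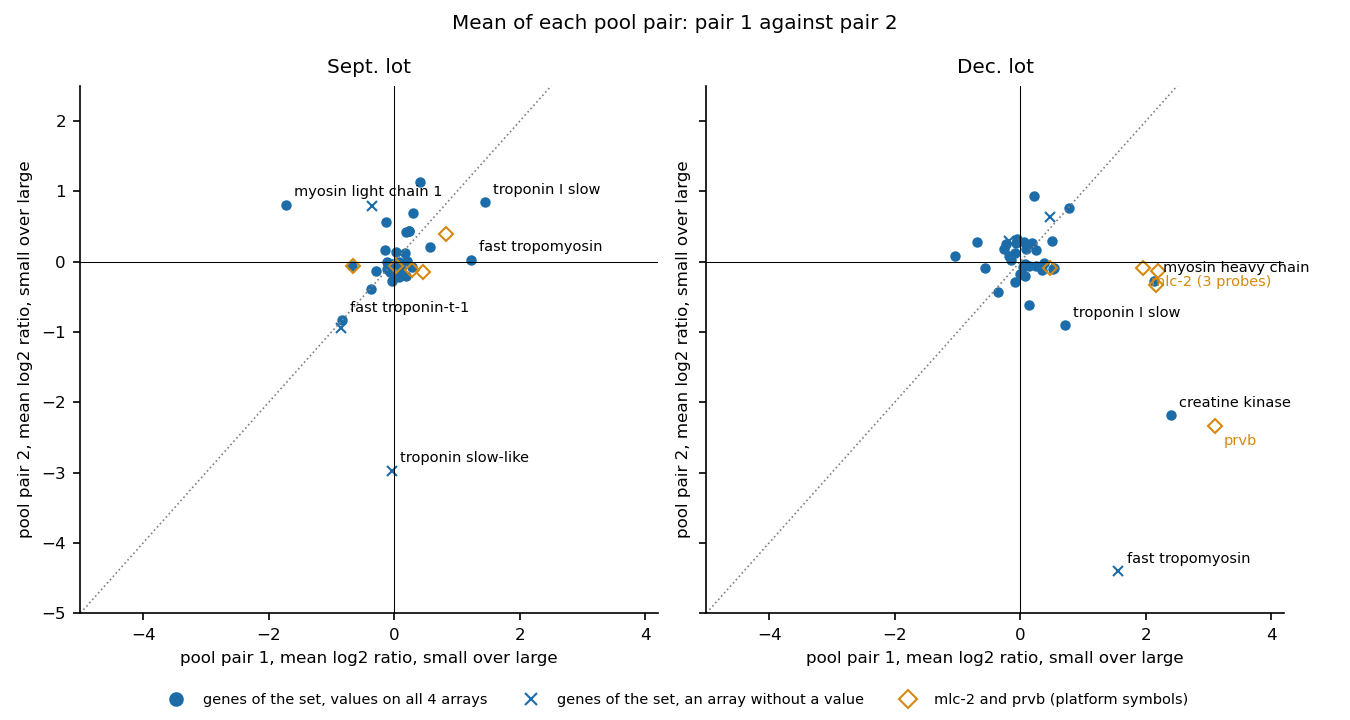
Mean log2 ratio of small over large fish in pool pair 1 (x axis) and pool pair 2 (y axis) for the muscle probes in the Sept. lot (left) and the Dec. lot (right), with crosses for probes lacking a value on an array of the lot and diamonds for mlc-2 and prvb. The dotted line marks equal pairs. In Dec., creatine kinase lies at 2.40 in pair 1 and -2.18 in pair 2, and myosin heavy chain at 2.14 and -0.27 beside 3 mlc-2 probes.

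Markers of other cells are given for the same Dec. pool pairs. The median over the liver cell probes was -0.59 in Dec. pool pair 1 and -0.11 in pool pair 2, that of the red blood cell probes 0.76 and 0.62, and that of the 2 collagen type I probes 0.36 and -0.01. The 4 red blood cell probes that the study's liver tables had not named had medians of 0.21 and 0.40 in these pairs. The part of all these markers in the pattern of the muscle genes was not tested. The median of the whole muscle set was 0.08 in Dec. pool pair 1 and -0.03 in pool pair 2.

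The 6 smooth muscle, non muscle and class I myosins had a median of 0.34 in Sept. and -0.09 in Dec., but the Sept. liver table had named 4 of them. Myosin regulatory light chain 2, smooth muscle isoform (A_05_P425467), whose phosphorylation starts contraction in smooth muscle, had Sept. ratios of 0.10, 0.73, 0.84 and 1.44, all above 0. The mean was 0.78 ± 0.23 (SE), or 1.71-fold higher in small fish. In Dec. it had -0.79, -0.32, 0.22 and -0.39, with a mean of -0.32 ± 0.23 (SE). The difference between the lots was 1.10 ± 0.33 (SE), and the probe was the only one of 31 muscle probes past the thresholds for Sept. above Dec., against 1.53% of all probes, while 0 were past them for Dec. above Sept., against 1.23%. Because the Sept. values had chosen the probe, this difference is a description. It no longer passed without Sept. pool pair 2, at 0.74, or without Dec. pool pair 1, at 0.86, and the Sept. value was 0.41 without Sept. pool pair 2, where its call was lost. The methods' t-test as run here did not call the Sept. value, although the study's Sept. liver table listed it.

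Calponin 2, an actin-binding protein of smooth muscle and other cells that was listed as a smooth muscle marker, had Sept. ratios of -0.72, 0.27, 0.78 and 1.78 and Dec. ratios of -1.07, 0.85, -0.76 and -0.31. Its means of 0.53 ± 0.38 and -0.32 ± 0.38 (SE) did not pass the thresholds. Myosin-11 isoform 2, a smooth muscle heavy chain, had 0.33 ± 0.17 in Sept. and 0.01 ± 0.17 (SE) in Dec. The class I myosins, motors that link actin to membranes, had 0.34 in Sept. and 0.21 in Dec. for myosin if, and 0.39 and -0.19 for the myosin ic probe A_05_P492767. The Sept. liver table had named these probes and myosin-11, so their Sept. values are a description. The myosin ic probe A_05_P330217, which the liver tables had not named, had -0.06 and 0.09.

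For a few genes the sign followed the dye more than the size of the fish. The non muscle myosin-2 heavy chain (A_05_P277062), the motor of cell division and cell shape, was singled out after its values were seen. With the small fish in 647 its ratios were -1.52, -0.35, -2.61 and -0.88, all below 0. With the small fish in 555 they were 1.26, 1.48, 0.52 and 1.03, all above 0. It was the only one of 31 muscle probes to do so, where 4.57% of all probes did. The opposite order, above 0 in 647 and below 0 in 555 on all 8 arrays, held for 2 of 31, the fast troponin I probes A_05_P432892 and A_05_P441982, where 3.52% of all probes showed it.

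Thin filament probes leaned the same way in both lots. In Sept. 11 of 13 had a mean above 0 with the small fish in 647 and 4 of 13 with them in 555, and in Dec. 10 of 13 and 3 of 13. Over all probes tested, 53.6% had such a mean above 0 in 647 and 46.6% in 555 for the Sept. lot, and 56.4% and 46.8% for the Dec. lot. Thick filament probes had the opposite order in Sept., with 2 of 6 in 647 and 5 of 6 in 555, and the same order in Dec., with 6 of 6 and 4 of 6. Averaging the dye exchange balances such a lean, and the main calls use both orientations. Counts from 1 orientation alone appear only in the last section, on processing, and carry this lean.

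**Figure D3:**
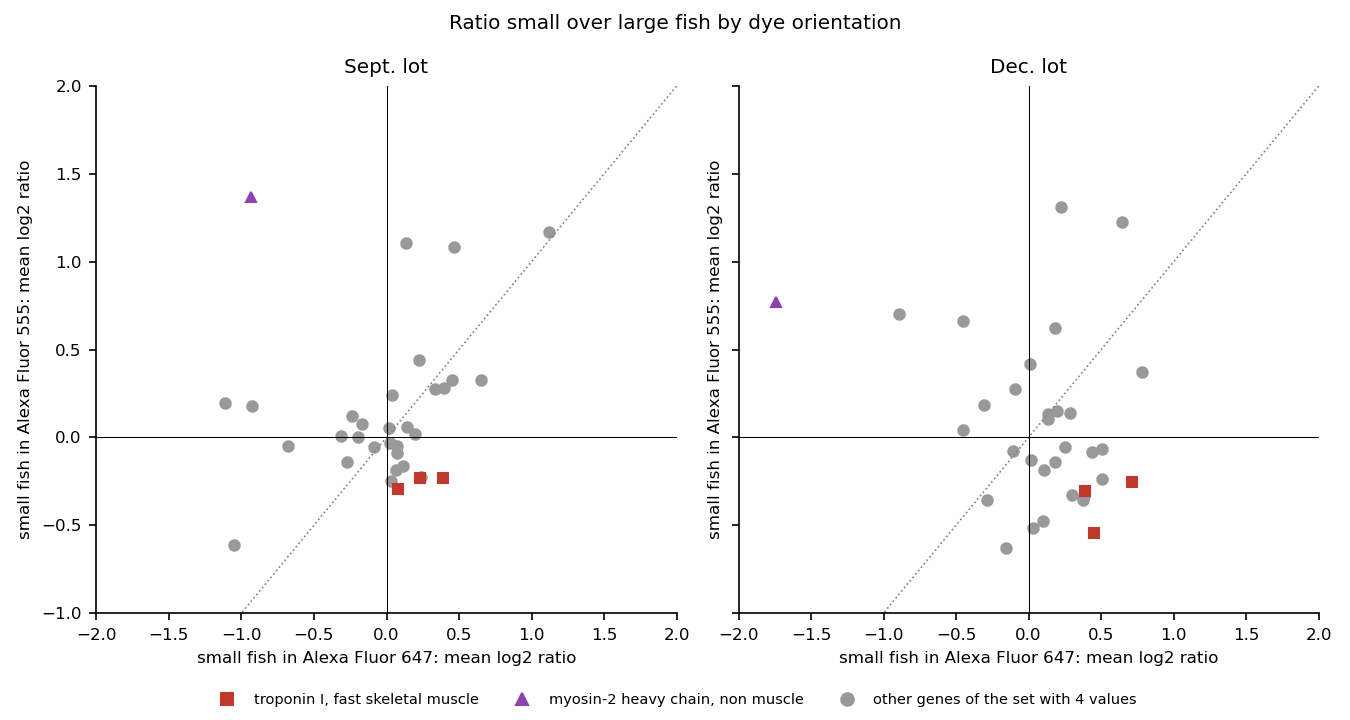
Mean log2 ratio of small over large fish with the small fish in Alexa Fluor 647 (x axis) and in Alexa Fluor 555 (y axis), for muscle probes with values on all 4 arrays of the Sept. lot (left) and the Dec. lot (right). Points on the dotted line have the same ratio in both orientations. The fast troponin I probes (squares) lie at the lower right and non muscle myosin-2 heavy chain (triangle) at the upper left in both lots, at -1.74 and 0.77 in Dec.

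By fibre type, the 6 fast names had a median of -0.05 over 6 tested in Sept. and of -0.05 over 5 tested in Dec., each with troponin-t-1 as the only probe past the thresholds. The 3 slow names had 2 tested, at 1.15 and -0.21 in Sept. and at -0.09 and -0.24 in Dec. Fast and slow probes overlapped in both lots. The 2 cardiac names lay between -0.10 and 0.17.

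Between the lots, the median difference over 31 muscle probes, Sept. minus Dec., was -0.10, beside -0.01 over 33291 probes. Of the muscle probes 10 were above 0 and 21 below, and of all probes 16068 above and 17222 below. This split was not tested. Some genes had a mean far from 0 in one lot and a mean near 0 in the other, as the plot of both lots shows. Troponin I slow had 1.15 in Sept. and -0.09 in Dec., where its pool pairs were on opposite sides of 0 at 0.72 and -0.91. Myosin heavy chain A_05_P277167 had -0.05 and 0.93, the latter from Dec. pool pairs at 2.14 and -0.27. Neither of these differences between the lots passed the thresholds. Others were not near 0 in either lot: troponin-t-1 had -0.83 and -0.39, and the smooth muscle regulatory light chain 0.78 and -0.32. The SE of a probe is the same in both lots, since the fit pools the spread.

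**Figure D4:**
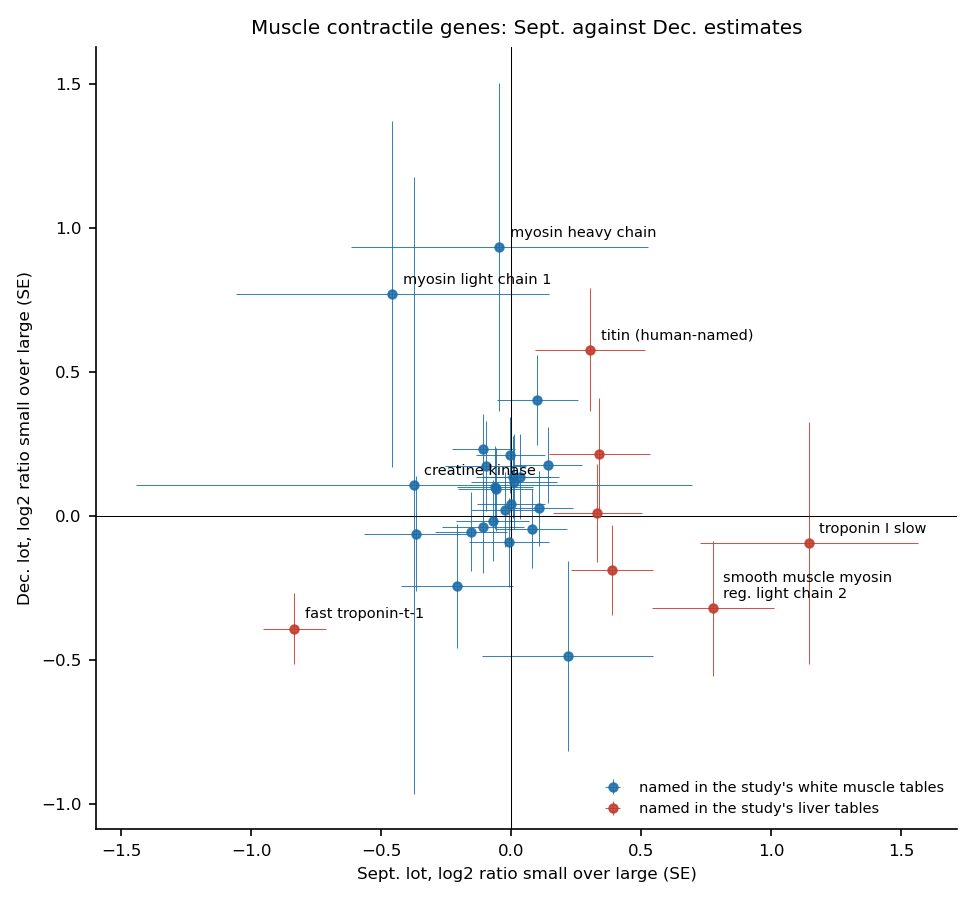
Mean log2 ratio of small over large fish in the Sept. lot (x axis) and the Dec. lot (y axis) for the 31 muscle probes with 8 values, with bars of 1 SE from limma (2 pool pairs a lot). Troponin I slow lies at 1.15 and -0.09, troponin-t-1 at -0.83 and -0.39, and myosin heavy chain and creatine kinase have the long bars of pool pairs far apart.

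Probes that share a name did not always share a ratio. The myosin heavy chain probes had 0.93 and 0.18 in Dec., the tropomyosin 2 probes 0.49 and -0.06 in Sept., and the myosin ic probes 0.39 and -0.06 in Sept. The 3 fast troponin I probes lay within 0.19 of each other in Sept. and within 0.28 in Dec. Trout carry duplicated genes, and which copy a probe detects is not given in the sources used here.

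A list of 16 probes for other muscle fibre genes that the rule does not take (telethonin, myozenin, myoglobin, enolase 3 and the like) had medians of 0.08 in Sept. and -0.07 in Dec. Of 16 tested in Sept. 1 was higher in small fish, against 1.52% of all probes, and 2 in large fish, against 1.21%. Of 14 tested in Dec. 1 was higher in small fish, against 2.09%, and 1 in large fish, against 2.75%. The study's liver tables had named A_05_P277187, A_05_P473007 and A_05_P466287 among those described next, which leaves 1 call in Sept. and 0 in Dec. outside those tables. Myozenin-2 (A_05_P277187), a Z disc protein, had Sept. ratios of -0.60, -1.02, -0.21 and -0.74, all below 0, and Dec. ratios of 0.23, -0.24, 0.15 and -0.22. Its means were -0.64 ± 0.14 and -0.02 ± 0.14 (SE). The other myozenin-2 probe (A_05_P265999) had 0.13 ± 0.44 in Sept. and -0.08 ± 0.44 (SE) in Dec. and passed in neither. Telethonin (A_05_P413737), which caps titin at the Z disc, had 0.33, 0.28, 0.41 and 0.50 in Sept., with a mean of 0.38 ± 0.13 (SE), and 0.14 ± 0.13 (SE) in Dec. The other telethonin probe (A_05_P263889) had 0.12 ± 0.39 in Sept. and -0.15 ± 0.39 (SE) in Dec. and passed in neither.

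Enolase 3, the glycolytic enolase of muscle, had 3 probes that went different ways. A_05_P473007 had ratios of -0.60, -0.53, -0.71 and -0.85 in Sept. and -0.69, -0.90, 0.06 and -0.66 in Dec., and was called higher in large fish in both lots at -0.67 ± 0.17 and -0.55 ± 0.17 (SE). A_05_P466287 had 0.54, 1.59, 0.47 and 1.05 in Dec., all above 0, and was called higher in small fish at 0.91 ± 0.14 (SE). The third probe, A_05_P473402, had means of 0.48 in Sept. and -0.14 in Dec. and passed in neither. A probe named beta-enolase-like isoform 1 (A_05_P482637) had 0.02 in Sept. and 0.00 in Dec. and did not pass either. Myoglobin, the oxygen store of red muscle, had -0.17 ± 0.22 and -0.27 ± 0.22 (SE).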

How the data were processed

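Liver mRNA pools were compared on 8 two-colour Agilent salmonid arrays. What the authors deposited for each array is 1 column of log2 ratios between its channels: they flagged bad spots by eye, removed points with a low ratio of channel signals and normalised by lowess within and across arrays. They were used without further centring, and 60 control rows were left out. The direction, small over large fish, and the log base were checked against the study's liver tables: 725 of 726 entries lay on the listed side and 724 met the listed fold within 0.02 on the log2 scale. Arrays are few and intensities were not used here. The SE comes from the spread between pool pair means. Disagreement between the arrays of a dye exchange enters it only through those means. That disagreement was large, with correlations between -0.14 and 0.06 over all probes. The limma estimate of the correlation of arrays of the same pool pair was 0.04.

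Each dye exchange was first reduced to its mean with avearrays. limma 3.58.1 (R 4.3.3; lmFit, eBayes) then estimated 1 mean for each lot from its 2 pool pairs, pooling the spread over the lots where both were tested. Calls need a fold of at least 1.2 and p at or under 0.05 before adjustment, and adjusted p-values are Benjamini-Hochberg over all probes. No p is printed for single genes except as adjusted.

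Members and lists were chosen with earlier results of these data known. Names come from the study's tables and the platform symbols. Given on each array are members past the thresholds, with 1 sign on all 8 arrays, or with fast or slow in the name, and those said to be singled out. Alternatives were the t-test of the methods, other fits, filters, dye orientations and folds, a block by pool pair number and the omission of single pool pairs. The pairs of the 2 lots hold different fish, and whether the same number marks the same comparison in both is not given. The code was tested on simulated data.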

Additional observations from a re-analysis of the deposited data

Results flagged for a closer look

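In 6 cases 1 value lay far from the other 3 arrays of their lot, out of 96 combinations of probe and lot looked at, where chance flags about 1 in 20. All 6 were in Sept., and 3 of them in pool pair 1 with the small fish in 555. In fast myotomal muscle tropomyosin that array read 2.35, with the others between -0.13 and 0.19. In myosin heavy chain, fast skeletal muscle it read 0.24 with the others from -0.32 to -0.23, and in myosin binding protein cardiac 0.16 with the others from -0.21 to -0.16. With the small fish in 647, pool pair 1 read 0.36 for alpha actin A_05_P449267, where the others lay between 0.00 and 0.04, and -0.44 for the muscle capping protein, where they lay between 0.19 and 0.32. Telethonin A_05_P263889 read 0.83 in Sept. pool pair 2 with the small fish in 647, with the others between -0.21 and -0.04.

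The effect of size differed between the lots at the unadjusted thresholds for 3 of 45 probes tested (muscle probes and the list of other fibre genes), 1 for Sept. above Dec., against 1.53% of all probes, and 2 for Dec. above Sept., against 1.23%. None had an adjusted p under 1.00 (limma). Sept. minus Dec. was 1.10 for the smooth muscle myosin regulatory light chain 2, -0.62 for myozenin-2 A_05_P277187 and -0.71 for enolase 3-2 A_05_P466287. The study's liver tables had named all 3.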

How the results depend on the processing

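The count of muscle probes past the thresholds was 3 in Sept., 2 in Dec. and 1 for the difference between the lots. Of all probes tested, 2.72%, 4.84% and 2.75% passed in the same order, and the shares in brackets below moved with the setting too. In Sept. the count was 5 of 33 with each lot fitted alone (4.17%) and 1 of 35 with the small fish in 647 alone (4.59%). With a replicate block it was 6 of 33 (5.51%). By the methods' t-test it was 4 of 33 (1.68%), of which only troponin I slow was among the 3. In Dec. it was 0 by the methods' t-test (2.08%) and at a fold of at least 1.5 (2.01%). It was 1 with each lot fitted alone (3.48%). It was also 1 in a fit of all arrays with a term for the dye and pool pairs as random blocks (6.49%). On centred arrays (4.92%) and with values on at least 1 array of each pool pair (4.98%) it was 1 as well. It was 5 of 34 with 647 alone (12.1%) and 4 of 33 with the replicate block (6.32%). The 5 include the non muscle myosin-2 heavy chain and the fast troponin I probe A_05_P432892, whose signs followed the dye. For the difference it was 2 on centred arrays (2.7%) and with 555 alone (3.2%), and 4 with the replicate block (3.86%). It was 0 without the smooth, non muscle and class I myosins. Without the members that the study's liver tables had named, the main fit gave 0 in both lots and for the difference. That left fewer members, with 26 tested in each lot and 24 for the difference. In other settings some of those members did pass, among them tropomyosin 2 A_05_P488277 in Sept.

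Leaving out 1 pool pair leaves a single pair in its lot, so no counts are given for these fits. Without Dec. pool pair 2 the Dec. value was 2.40 for creatine kinase A_05_P388107 and 2.14 for myosin heavy chain A_05_P277167. Without Dec. pool pair 1 these values were -2.18 and -0.27. In these fits the spread of the single remaining pair is taken from the other lot. The median of the members was 0.0707 in Sept. with 647 alone, and in Dec. 0.1822 with 647 and -0.0642 with 555 alone. Leaving out pool pairs it ran from -0.03 to 0.03 in Sept. and from 0.00 to 0.08 in Dec. The called single probes reversed under none of their 11 settings, but this says little about stability. Several of these settings change only the spread and leave the mean of a lot as it was. For every call but troponin-t-1 in Dec., all arrays of the lot lay on the same side of 0. No subset of those arrays could reverse such a call. Troponin-t-1 in Dec. could have reversed, and its values ran from -0.63 to -0.16. The cause of the changes between settings was not tested. Same-numbered pool pairs of the lots deviated with a correlation of 0.03 over 33291 probes. That value cannot settle whether a number marks the same comparison in both lots, which the replicate block assumes.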
